A study of Homo sapiens with 4 samples.

Results

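Hypoxia sensing and response was followed through 10 genes in GBM8401, a human malignant glioma cell line, with the temozolomide (TMZ)-resistant line set against its parental line. The genes were taken by name from the gene table, from a list drawn up with earlier results of these data known, and they are 10 of the 58219 gene IDs listed. They are the hypoxia-inducible factor (HIF) alpha subunits HIF1A and EPAS1, the prolyl hydroxylases EGLN1 and EGLN3, and the target genes CA9, CA12, NDRG1, P4HA1, BNIP3L and ANKRD37. The TMZ-resistant group held 2 RNA-seq libraries of GBM8401 cells selected in 200 µM TMZ, an alkylating drug given for glioblastoma, over 140 days. The parental group held 2 libraries of GBM8401 cells that the labels call parental. For both, the growth protocol gives RPMI1640 medium with serum and an incubator atmosphere of 5% CO2 and 95% air, and no hypoxic culture is described. Both resistant libraries come from 1 derived line, and the labels call the replicates biological without tying them to separate days or flasks, so p-values measure the spread between these cultures only.

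In cells with oxygen, the EGLN enzymes hydroxylate HIF alpha subunits on prolines, and the VHL ubiquitin ligase then marks these subunits for destruction. A further oxygenase, FIH (gene HIF1AN), hydroxylates an asparagine and keeps the coactivators CREBBP and EP300 away. When oxygen is short, HIF alpha pairs with ARNT, binds short DNA elements with the core ACGTG or GCGTG, and switches on genes of glycolysis, pH control, matrix assembly, blood vessel growth and mitophagy. Several of those targets, EGLN3 among them, feed back on the pathway. Much of this control acts on protein stability, which RNA values do not show.

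The promoter sequences of the sensors and of the target genes are shown because the core element is what the target genes are known to share. RefSeq (GRCh38.p14) gave start-site windows for 8 of the 10 genes, 2 of them for HIF1A. The 250 bases before each start were searched on both strands for ACGTG and GCGTG. Capitals mark every match, read on the gene's strand, so that CACGT and CACGC are matches on the opposite strand.
EGLN1 (chr1:231422288-231422537, minus strand): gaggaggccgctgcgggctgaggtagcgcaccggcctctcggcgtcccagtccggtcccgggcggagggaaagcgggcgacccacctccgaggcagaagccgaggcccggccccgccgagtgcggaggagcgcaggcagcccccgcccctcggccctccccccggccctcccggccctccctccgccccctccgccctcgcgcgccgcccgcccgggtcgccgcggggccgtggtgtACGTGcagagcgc
EGLN3 (chr14:33951075-33951324, minus strand): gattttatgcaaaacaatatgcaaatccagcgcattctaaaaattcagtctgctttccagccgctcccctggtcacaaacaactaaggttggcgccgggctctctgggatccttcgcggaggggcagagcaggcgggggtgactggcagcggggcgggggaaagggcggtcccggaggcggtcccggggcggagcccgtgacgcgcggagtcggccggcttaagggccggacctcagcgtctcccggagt
CA9 (chr9:35673678-35673927, plus strand): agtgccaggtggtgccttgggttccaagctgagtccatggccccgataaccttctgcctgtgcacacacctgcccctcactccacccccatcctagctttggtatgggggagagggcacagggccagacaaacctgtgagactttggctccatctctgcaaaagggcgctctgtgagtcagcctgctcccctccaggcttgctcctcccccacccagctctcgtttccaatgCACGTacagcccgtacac
CA12 (chr15:63381847-63382096, minus strand): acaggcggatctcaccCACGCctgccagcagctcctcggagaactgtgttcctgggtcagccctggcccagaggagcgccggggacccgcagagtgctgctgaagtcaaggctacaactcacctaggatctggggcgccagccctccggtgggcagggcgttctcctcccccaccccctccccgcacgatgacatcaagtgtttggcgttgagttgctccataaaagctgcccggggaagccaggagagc
P4HA1 (chr10:73096867-73097116, minus strand): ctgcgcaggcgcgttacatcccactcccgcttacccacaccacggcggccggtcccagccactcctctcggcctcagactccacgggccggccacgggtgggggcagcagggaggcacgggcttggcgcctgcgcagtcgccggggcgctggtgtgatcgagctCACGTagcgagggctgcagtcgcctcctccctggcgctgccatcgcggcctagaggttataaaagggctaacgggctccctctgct
ANKRD37 (chr4:185396591-185396840, plus strand): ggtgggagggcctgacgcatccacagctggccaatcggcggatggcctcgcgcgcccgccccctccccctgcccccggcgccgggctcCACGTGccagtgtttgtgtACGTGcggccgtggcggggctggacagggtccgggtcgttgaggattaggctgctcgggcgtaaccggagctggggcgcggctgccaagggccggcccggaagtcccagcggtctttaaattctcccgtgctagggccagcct

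The match began 13 bases before the start in EGLN1, 18 in CA9, 86 in P4HA1 and 234 in CA12. ANKRD37 held 3 matches, of which the pair beginning 162 and 161 bases before the start overlap within the palindrome CACGTG, while the other began at 143. EGLN3 held none in this window. In EPAS1 there was 1 match, and HIF1A had 1 in its upstream window and none in its downstream window. In all, 7 of the 9 windows of these genes held a match, against 54.0% of the 15374 windows of protein-coding genes tested and 43.2% of all 35116 windows. Among the other pathway genes tested, 78 of 121 windows (64.5%) held one, so matches were common across the pathway. ANKRD37 was the only gene of the 8 with 3 matches, which 10.8% of the windows of tested coding genes reach. A match describes letters only.

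Values are the deposited scaled fragment numbers per gene. The deposited totals were 23163310 and 24225039 in the resistant and 24791254 and 25832511 in the parental libraries, where 1 fragment was worth 0.753 to 0.956. Replicates correlated at a Pearson r of 0.991 (resistant) and 0.989 (parental) over the log2 values of 16132 genes tested, against 0.965 to 0.971 between groups. As glioma markers, VIM, CD44, EGFR and NES were abundant, OLIG2 lay between 183.4 and 237.1 and SOX2 between 2.87 and 10.5. GFAP, S100B and AQP4, which mark astrocytes, stayed under 10 in every library. The 9 glioma markers summed to 76821 and 85533 in resistant and 114682 and 121106 in parental libraries. VIM made up most of each sum, at 47407 and 54488 in resistant and 74280 and 81177 in parental libraries. Of the 5 tested, 0 rose and 3 fell (VIM, CD44 and NES), against 16.2% and 20.9% of all genes tested. The 5 epithelial markers summed to 35201 and 36865 in resistant and 18587 and 20478 in parental libraries. Of these 5, 2 rose, against 16.2% of all genes tested. They were KRT8, 2.09-fold, and KRT18, 1.81-fold (limma, adjusted p = 0.000163 and 0.000221). The part of these markers in the results was not tested. Genes on a log2(value + 1) scale were compared with limma, and an adjusted p under 0.05 counts as a change.

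Of the 10 genes, all passed the filter on low values, and 2 rose (NDRG1 and HIF1A), 2 fell (CA12 and EGLN1) and 6 did not pass the test. Among all genes tested, 37.1% changed, 16.2% higher and 20.9% lower, so the share called here lies near that of any gene. The median log2 fold change was 0.02 over the 10 genes and −0.02 over all genes tested, and over the 10 it was −0.05 without resistant replicate 2 and 0.14 without parental replicate 2. In 8 of the 10 the groups did not overlap, against 68.6% of all genes tested: 5 had both resistant libraries on top, as did 32.2% of all genes, and 3 had both at the bottom, as did 36.4%. Replicate 2 was above replicate 1 in both groups in 7 of the 10, against 40.0% of all genes, and below it in both in 1, against 22.4%. The 10 log2 fold changes ranged from −0.87 (CA12) to 1.73 (NDRG1). In a culture, fewer cells that express a gene and less RNA per cell cannot be told apart.

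**Figure D1:**
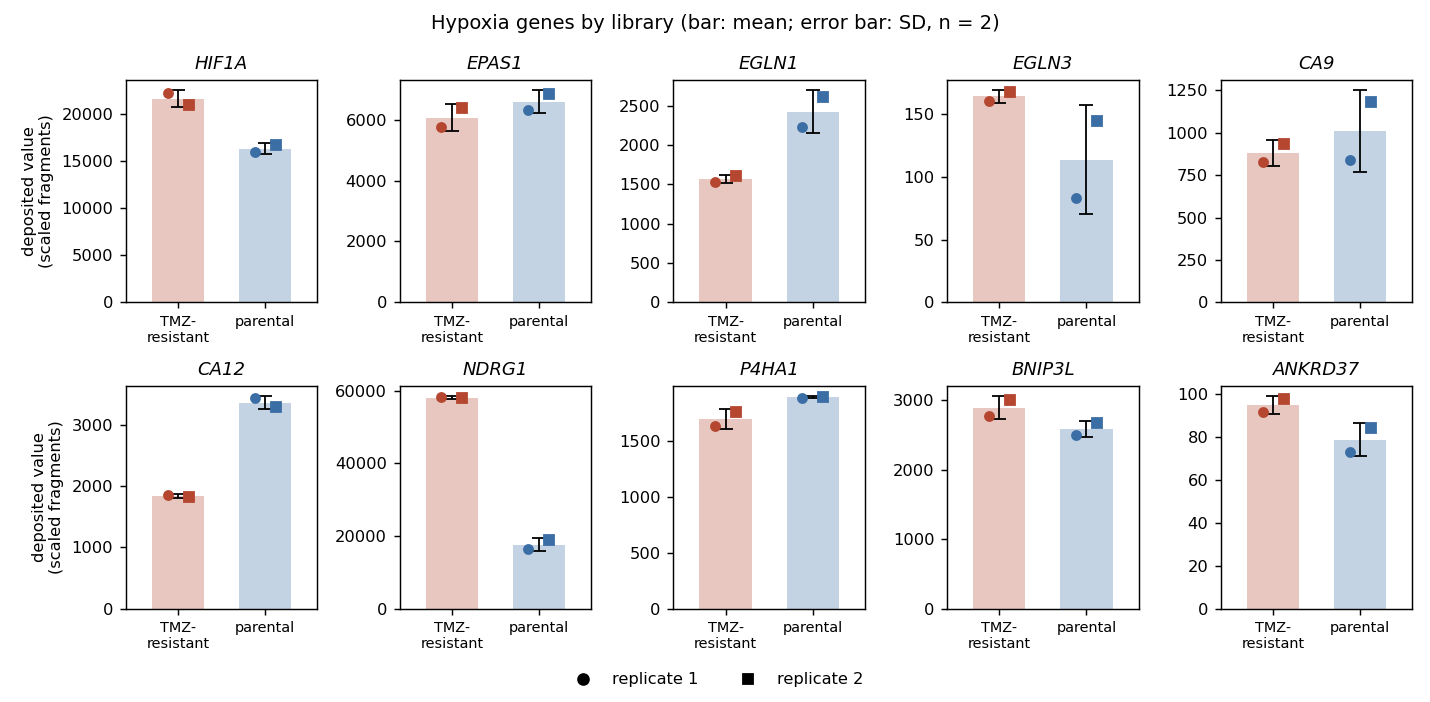
Deposited values (scaled fragments) of the 10 hypoxia genes in the TMZ-resistant (left) and parental (right) libraries. Bars give the mean, error bars the SD of 2 libraries, circles replicate 1 and squares replicate 2. NDRG1 has 58274 and 57824 in the resistant libraries, while CA12 and EGLN1 lie lower in resistant cells and CA9 and EPAS1 overlap between the groups.

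HIF1A encodes the alpha subunit found in nearly all cells. The gene (ENSG00000100644, chromosome 14, 61695513 to 61748259, plus strand, GRCh38) had 22244 and 20996 in the resistant libraries, against 15921 and 16723 in the parental ones. Every resistant library lay above every parental one, by more than the gap within either group. The means were 21620 ± 882 and 16322 ± 567 (SD, n = 2 each), which is 1.32-fold higher in resistant cells, or 0.41 ± 0.07 (SE) in log2 units (limma, adjusted p = 0.00268). Without the mean-variance trend and robust moderation the adjusted p was 0.0543. Of the antisense RNAs of the locus, HIF1A-AS1 was listed at 1.70 at most and HIF1A-AS2 at 0 in every library. AL137129.1, which overlaps HIF1A on the same strand, had 262.4 at most.

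EPAS1 encodes HIF-2 alpha, the paralog that is prominent in endothelium and has been studied in glioma stem cells. It (chromosome 2, 46293667 to 46386703, plus strand) had 5746 and 6373 in the resistant libraries, against 6324 and 6848 in the parental ones. The groups overlapped. The log2 fold change was −0.12 ± 0.08 (SE), with a 95% interval of −0.31 to 0.07 (adjusted p = 0.285). Per kilobase of exon HIF1A exceeded EPAS1 by 5.49 and 4.67 times in the resistant libraries and by 3.57 and 3.46 times in the parental ones. This ratio is taken within a library and does not depend on scaling, and both resistant ratios were above both parental ratios.

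Of 5 further subunit and coactivator genes 4 were tested. By limma 0 rose and 0 fell, against 16.2% and 20.9% of all genes, with 1 (ARNT2) at an unadjusted p under 0.05. So few genes leave room for 0 calls at those shares. With library-total scaling 1 rose, and with replicate number as a block 1 rose and 1 fell. ARNT, the constitutive partner, stood at 0.19 ± 0.09 in log2 units (SE; adjusted p = 0.136), and its neural paralog ARNT2 one of −0.29 ± 0.12 (adjusted p = 0.0995). CREBBP and EP300, the coactivators, had −0.04 and −0.09. HIF3A was at 1.51 or less in every library and was not tested.

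EGLN1 encodes PHD2, the main prolyl hydroxylase of HIF-1 alpha. The gene (ENSG00000135766, chromosome 1, 231363751 to 231425044, minus strand) had 1533 and 1609 in the resistant libraries, against 2229 and 2615 in the parental ones. Both resistant values lay well under both parental values. The means were 1571 ± 53.9 and 2422 ± 273 (SD, n = 2 each), and the log2 fold change was −0.62 ± 0.10 (SE), which is 1.54-fold lower (limma, adjusted p = 0.0018). The call held in 13 of 13 alternative settings, at log2 fold changes of −0.73 to −0.50.

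EGLN3 encodes PHD3, whose transcript is itself induced by HIF. It was the lowest of the 10 genes per kilobase of exon. The gene (chromosome 14, 33924231 to 34462774, minus strand) had 160.4 and 167 in the resistant libraries, against 83.0 and 144 in the parental ones. The groups did not overlap, but the parental libraries differed from each other by 0.79 on the log2 scale. The log2 fold change of 0.58 ± 0.26 (SE; 95% interval −0.02 to 1.18) did not pass (adjusted p = 0.119). It was 0.97 (adjusted p = 0.0068) without parental replicate 2 and 0.18 (adjusted p = 0.507) without parental replicate 1, and it passed narrowly when scaled to library totals (0.67, adjusted p = 0.0496). The annotated span of EGLN3 takes in SPTSSA on the same strand, which had 1092 to 1490, so assignment of fragments between them is uncertain.

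The other sensors and turnover factors went both ways. Beside the 2 members, 12 genes of oxygen sensing and HIF alpha turnover were tested, with a median of −0.03. Of these 12, 4 rose (33.3%) and 2 fell (16.7%), against 16.2% and 20.9% of all genes. HIF1AN rose 1.73-fold, with 4224 ± 217 in resistant and 2439 ± 44.3 in parental cells (SD, n = 2 each; log2 fold change 0.79 ± 0.08, adjusted p = 0.000246). EGLN2, the PHD1 gene, fell 1.59-fold, to 891.9 ± 108 in resistant cells, against 1418 ± 134 in parental cells (adjusted p = 0.00274). OS9, a lectin of endoplasmic reticulum quality control, rose by 0.33, and CUL2, the scaffold of the VHL ligase, fell by 0.32 on the log2 scale (adjusted p = 0.0124 and 0.0144). The calls for OS9 and CUL2 were each lost in 3 of 13 settings. VHL itself, named here after its value was seen, rose by 0.31 (adjusted p = 0.0348). Without parental replicate 1, without resistant replicate 2, or without trend and robust moderation, 1 of the 12 rose.

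Set against EGLN1 within a library, HIF1AN stood at 1.38 and 1.42 times its level per kilobase in resistant cells, against 0.563 and 0.492 times in parental cells. By this measure HIF1AN was above EGLN1 in both resistant libraries and below it in both parental libraries. That order depends on the annotated exon lengths, 13950 bases for HIF1AN and 7265 for EGLN1. Without division by length, HIF1AN was above EGLN1 in parental replicate 1 as well (2408 against 2229). In parental replicate 2 it stayed below (2471 against 2615). EGLN1 exceeded EGLN3 by 9.68 and 9.74 times in resistant cells and by 27.2 and 18.3 times in parental cells. EGLN1 over EGLN2 stood at 1.7 and 1.5 in resistant cells, against 1.52 and 1.56 in parental cells, and the groups overlapped. HIF1AN lies on chromosome 10, where of 24 coding genes tested that start within 1 Mb 12 rose and 0 fell, with a median of 0.55. Their part in its rise was not tested.

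**Figure D2:**
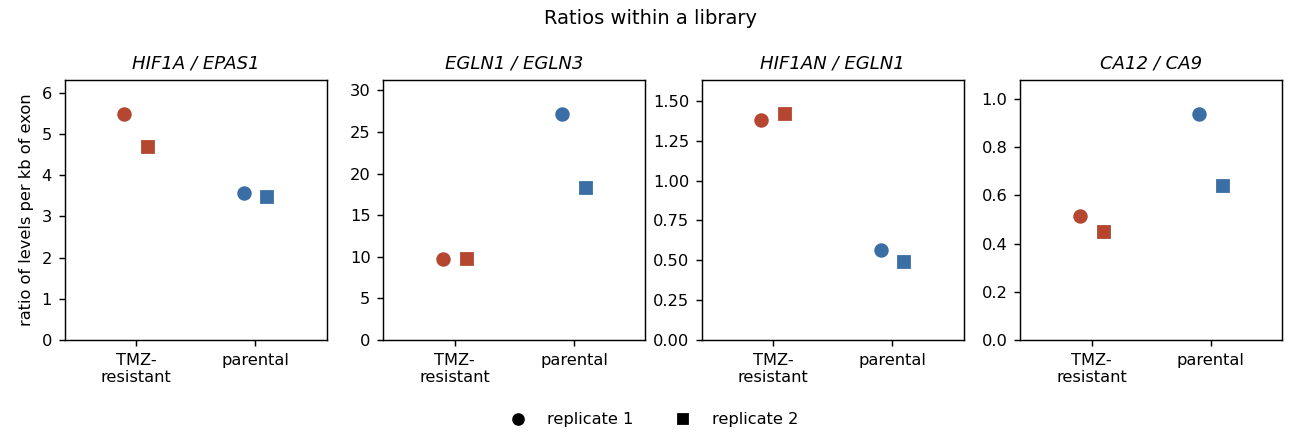
Ratios of levels per kilobase of exon within each library, for HIF1A over EPAS1, EGLN1 over EGLN3, HIF1AN over EGLN1 and CA12 over CA9, with TMZ-resistant libraries left of parental ones. Circles are replicate 1 and squares replicate 2. The groups do not overlap in these 4 panels, unlike for EGLN1 over EGLN2, which is not plotted.

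CA9 and CA12 encode carbonic anhydrases at the cell surface that hydrate carbon dioxide and regulate pH around tumour cells. CA9, the classic HIF-1 target and hypoxia marker, had 826.8 and 931.6 in the resistant libraries, against 837.9 and 1178 in the parental ones (chromosome 9, 35673856 to 35681159, plus strand). The groups overlapped, since parental replicate 1 lay between the resistant libraries. The log2 fold change was −0.18 ± 0.16 (SE; 95% interval −0.55 to 0.20; adjusted p = 0.43). It was −0.42 (adjusted p = 0.0213) without parental replicate 1 and 0.07 (adjusted p = 0.709) without parental replicate 2. CA9 overlaps ARHGEF39 on the other strand, which had 361.8 to 468.5.

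CA12 showed the largest fall of the 10 genes. It (ENSG00000074410, chromosome 15, 63321378 to 63382161, minus strand) had 1860 and 1824 in the resistant libraries, against 3441 and 3301 in the parental ones. The replicates lay close together and the groups far apart. With means of 1842 ± 25.3 and 3371 ± 98.8 (SD, n = 2 each), the log2 fold change was −0.87 ± 0.08 (SE), or 1.83-fold lower (limma, adjusted p = 0.00016), and it stayed between −0.90 and −0.78 in 13 alternative settings, all of which called it. Per kilobase, CA12 stood at 0.514 and 0.447 of CA9 in resistant cells, against 0.938 and 0.64 in parental cells.

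Among 8 further tested genes of pH control and acid transport, 1 rose (12.5%) and 3 fell (37.5%), against 16.2% and 20.9% of all genes. With library-total scaling 2 rose and 2 fell, and without trend and robust moderation 1 rose and 2 fell. The median of the 8 was −0.30, and −0.17 without parental replicate 1 or resistant replicate 1. SLC16A3, the lactate exporter MCT4 and a HIF-1 target, fell 1.65-fold to 2092 ± 239 in resistant cells, against 3444 ± 413 in parental cells (SD, n = 2 each; adjusted p = 0.00203). The bicarbonate cotransporter SLC4A7 fell 1.48-fold (adjusted p = 0.00168). The catalytically inactive family member CA11 rose 1.63-fold (adjusted p = 0.0149), a call lost without either resistant library.

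NDRG1, a differentiation and stress gene induced by hypoxia and by iron depletion, changed most. It (ENSG00000104419, chromosome 8, 133237171 to 133302022, minus strand) had 58274 and 57824 in the resistant libraries, against 16283 and 18858 in the parental ones. The resistant values lay close to each other and far above the parental ones. The means were 58049 ± 318 and 17570 ± 1821 (SD, n = 2 each), a 3.31-fold rise, 1.73 ± 0.08 (SE) in log2 units (limma, adjusted p = 1.92e-05). In absolute size it exceeded the change of 97.6% of genes tested. NDRG1 was called in 13 of 13 alternative settings, at 1.62 to 1.83. Its relatives NDRG2, NDRG3 and NDRG4 had log2 fold changes of 0.23, 0.13 and 0.31 (limma, adjusted p = 0.576, 0.276 and 0.236). Of the 3, 0 passed, against 37.1% of all genes, and 0 had an unadjusted p under 0.05. Without resistant replicate 1, 1 of the 3 rose. Per kilobase NDRG1 exceeded NDRG3 by 10.9 times in both resistant libraries, against 3.18 and 4.07 times in the parental ones.

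By level per kilobase of exon the order in resistant cells was NDRG1 (5910), HIF1A (4197), EPAS1 (830), BNIP3L (670), P4HA1 (549), CA9 (526), CA12 (252), EGLN1 (216), ANKRD37 (36.7) and EGLN3 (22.3). P4HA1 and CA9 overlapped there, at 529 and 569 against 495 and 558. In parental cells HIF1A (3169) came before NDRG1 (1789). P4HA1 (611) and BNIP3L (599) lay there within the spread of CA9 (604), which had 502 and 705. NDRG1 and HIF1A stood above 99.5% and 99.3% of protein-coding genes tested in resistant cells, and above 97.0% and 98.7% in parental cells. EGLN3 stood above 20.2% and 17.9%. These lengths join all annotated exons of a gene and understate the level of genes with unused exons.

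P4HA1 encodes the catalytic subunit of collagen prolyl 4-hydroxylase, a different enzyme from the HIF hydroxylases. Its values (chromosome 10, 73007217 to 73096974, minus strand) were 1636 and 1761 in the resistant libraries, against 1886 and 1896 in the parental ones. The resistant libraries lay below the parental ones, but by no more than about the gap between themselves. The log2 fold change of −0.16 ± 0.08 (SE; 95% interval −0.34 to 0.03) did not pass (adjusted p = 0.173), in any of 13 alternatives either. Of 7 further tested genes of collagen hydroxylation and crosslinking, 0 rose and 4 fell (57.1%), against 16.2% and 20.9% of all genes. The median of the 7 was −0.31. LOX, a lysyl oxidase that crosslinks collagen, fell 1.6-fold to 2500 ± 151 in resistant cells, against 4013 ± 661 in parental cells (SD, n = 2 each; adjusted p = 0.00329). PLOD2 and PLOD1, lysyl hydroxylases, were 1.34-fold and 1.26-fold lower (adjusted p = 0.00803 and 0.0377), and P4HB, the beta subunit of P4HA1's enzyme, 1.16-fold lower (adjusted p = 0.043). P4HB lost its call in 7 of the 13 settings, including library-total scaling. PLOD1 lost it in 3, and PLOD2 and LOX in 1 each. Without parental replicate 2 or resistant replicate 1, 2 of the 7 fell, and without trend and robust moderation 0. The median was −0.19 without parental replicate 2.

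BNIP3L encodes NIX, a receptor that recruits autophagosomes to mitochondria. It (chromosome 8, 26382898 to 26505636, plus strand) had 2771 and 3002 in the resistant libraries, against 2495 and 2662 in the parental ones. The groups did not overlap, at a distance smaller than the gap within either. Its log2 fold change of 0.16 ± 0.08 (SE; 95% interval −0.03 to 0.35) did not pass (adjusted p = 0.157), though it did when scaled to library totals (0.26, adjusted p = 0.0172). On the other strand BNIP3L overlaps PNMA2, which had 4685 to 5226, and the pseudogene SDAD1P1, which had 44.4 and 28.9 in resistant and 15.5 and 12.4 in parental libraries. Of 8 further tested mitochondrial and mitophagy genes, 1 rose (12.5%) and 0 fell, against 16.2% and 20.9% of all genes. The median of the 8 was −0.02. BNIP3, its HIF-induced paralog, had 4079 in resistant cells and 4397 in parental cells and was not called (−0.11, adjusted p = 0.327). The gene that rose was MXI1, an antagonist of MYC, at 2.2-fold (adjusted p = 9.18e-05), and it lies on chromosome 10 where 7 of 10 tested coding genes within 1 Mb rose and 0 fell, with a median of 0.51. The part of these neighbours in its rise was not tested.

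ANKRD37, a small ankyrin-repeat gene that responds strongly to HIF-1, had 91.9 and 97.7 in the resistant libraries, against 73.2 and 84.1 in the parental ones (chromosome 4, 185396021 to 185400628, plus strand). Resistant values lay above parental values by less than the parental replicates differed. The log2 fold change of 0.27 ± 0.20 (SE; 95% interval −0.19 to 0.73) did not pass (adjusted p = 0.339). At this level of expression a change of 0.73, or 1.66-fold, still lies within the interval. ANKRD37 overlaps UFSP2 on the other strand, which had 614 to 702.6.

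Of 17 further transcriptional and stress targets, 6 rose (35.3%) and 3 fell (17.6%), against 16.2% and 20.9% of all genes. The median of the 17 was 0.33. KLHL24 rose 2.51-fold, to 1917 ± 11.6 in resistant cells, against 769.3 ± 134 in parental cells (SD, n = 2 each; adjusted p = 0.0002). CITED2, which competes with HIF for CREBBP and EP300, rose 2.01-fold (adjusted p = 0.000134), and the repressor BHLHE40 rose 1.90-fold (adjusted p = 0.000101). ZNF395 fell 1.51-fold (adjusted p = 0.000721). With library-total scaling 10 of the 17 rose, and without trend and robust moderation 4. The 17 had a median of 0.15 without parental replicate 1 and 0.52 without parental replicate 2.

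Of 21 glycolytic genes 2 rose (9.52%) and 8 fell (38.1%), against 16.2% and 20.9% of all genes. The median of the 21 was −0.20. The glucose transporter SLC2A3 rose 3.09-fold, to 8686 ± 9.54 in resistant cells, against 2829 ± 413 in parental cells, and the aldolase ALDOC rose 2.84-fold, to 3266 ± 175 against 1149 ± 85.0 (SD, n = 2 each; adjusted p = 5.07e-05 and 3.79e-05). Hexokinase 2 (HK2) fell 1.44-fold and PFKFB4, which makes an activator of phosphofructokinase, 1.69-fold (adjusted p = 0.00304 and 0.00177). The median was −0.12 without parental replicate 2. Without resistant replicate 1, 3 of the 21 fell, and without trend and robust moderation 1.

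Of 10 tested secreted and vascular targets 4 rose (40.0%) and 3 fell (30.0%), against 16.2% and 20.9% of all genes. The median of the 10 was 0.16. FLT1, a VEGF receptor, rose 9.26-fold, to 481.1 ± 71.5 in resistant cells, against 51.0 ± 7.24 in parental cells (adjusted p = 3.79e-05). EDN1, the endothelin 1 precursor, fell 4.60-fold, to 184.8 ± 8.92 against 853.7 ± 48.8 (adjusted p = 3.09e-05). The glycoprotein hormone STC1 fell 1.77-fold and IGFBP3 rose 1.51-fold (adjusted p = 0.000345 and 0.00119). Markers of endothelial cells summed to 952.6 and 836.5 in resistant and 1358 and 1556 in parental libraries over 7 genes. Of the 6 tested, 0 rose and 3 fell, against 16.2% and 20.9% of all genes. The part of these markers in the vascular genes was not tested. VEGFA, the best known secreted target and named after its value was seen, was not called (0.16 in log2 units, adjusted p = 0.287).

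**Figure D3:**
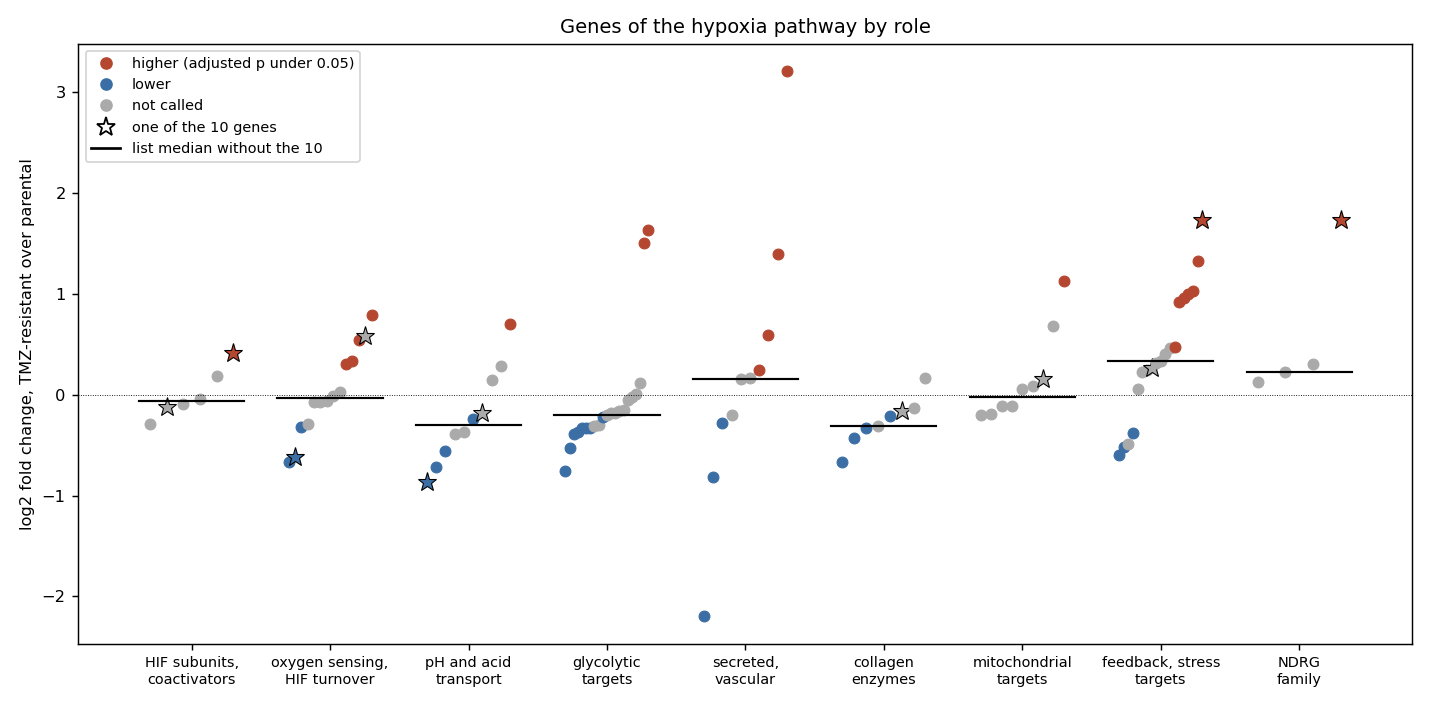
Log2 fold change, TMZ-resistant over parental, of each tested hypoxia pathway gene by role. Red marks genes called higher, blue genes called lower and grey genes not called. Stars are the 10 genes described, and the black line is the median of a list without them, from −0.31 for collagen enzymes to 0.33 for feedback and stress targets.

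Over all 98 pathway genes beside the 10, 90 were tested, 18 rose and 23 fell, with a median of −0.06 that turned positive, as did those of the subunit, sensing and mitochondrial lists, under library-total scaling, which moves the median of all genes by 0.09. The 45.6% called compares with 37.1% of all genes. The split depended on scaling: 43.9% of those called were higher as deposited and 55.8% when scaled to library totals, where 24 rose and 19 fell. For the 10 genes that scaling gave 4 higher and 2 lower, and for all genes 3665 higher and 2773 lower in place of 2621 and 3370. Without resistant replicate 1, 27 of the 90 were called, and without trend and robust moderation 20.

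CA12 lay below all 14 and EGLN1 below all 13 tested coding genes that start within 1 Mb, whose medians were −0.11 and −0.08. NDRG1 lay above all 7 of its neighbours, at a median of −0.34, and HIF1A above 7 of 8, at a median of −0.04. The 7 around NDRG1 ranged from −2.59 to 1.26, and 1 of them rose (ST3GAL1, at 1.26) while 3 fell. EGLN3, which was not called, also lay above all 12 of its neighbours, at a median of −0.22. Those 12 start within 1 Mb of the outermost annotated start of EGLN3, at 34462774. The promoter window shown for EGLN3 ends at 33951324, and 1 Mb around it takes in a different set of genes. The log2 fold change of EGLN3 itself, 0.58, was 0.18 without parental replicate 1. P4HA1, on chromosome 10, had 28 such neighbours, of which 7 rose and 4 fell, with a median of 0.08, and it lay below 21 of them.

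**Figure D4:**
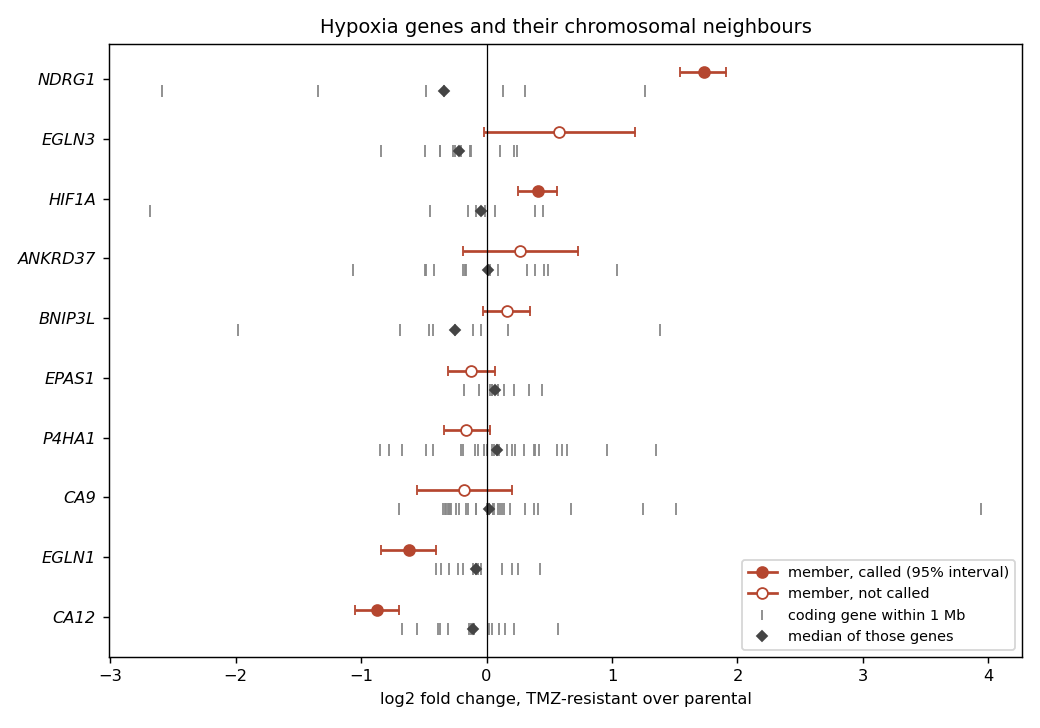
Log2 fold change, TMZ-resistant over parental, of each hypoxia gene (circle, with its 95% interval; filled where called) and of the tested protein-coding genes starting within 1 Mb (ticks, with their median as a diamond). NDRG1, EGLN1 and CA12 lie outside the range of their neighbours, as does EGLN3, which was not called. For EGLN3 the distance was taken from its outermost annotated start, at 34462774.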

How the data were processed

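The authors deposited gene-level signal values for the 4 libraries in 1 table. The submitters' processing notes name Cufflinks 2.2.1 with Cuffdiff, HISAT2 2.1.0, Trimmomatic 0.36, SAMtools 1.2, bcl2fastq and GRCh38.p10. The annotation, the scaling and whether counting used strand were not stated in any label. The deposited signal behaves as fragments per gene times a factor per library (whole within 0.05 for 92.0% to 94.2% of values above 0), so a count test was not used, and precision is that of the spread between libraries.

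Symbols, coordinates and exon lengths came from GENCODE 29 (57881 IDs matched). Genes with a value of at least 10 in 2 libraries and a sum of at least 15 were kept. Values were analysed as log2(value + 1), which understates the change of low genes, in limma 3.58.1 (R 4.3.3) with trend and robust moderation, group alone, two-sided, with Benjamini-Hochberg adjustment over 16132 genes. The fit was tested on simulated data. Scaling, pseudocount, filter, moderation, a block and leaving out each library were varied.

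The 10 genes and the role lists were chosen with earlier results of these data known. Named beside them were up to 4 called genes with the smallest adjusted p in each list, of which 1 is not reported here. Neighbours of HIF1AN and MXI1 were added after their values were seen. Those of PPP1R3C, FLT1, EDN1, SLC2A3 and ALDOC were looked at too. Their median log2 fold changes were 0.23, −0.09, −0.18, 0.21 and −0.07, in that order. PPP1R3C also lies on chromosome 10, where 4 of its 12 neighbours rose and 1 fell.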

Additional observations from a re-analysis of the deposited data

How the results depend on the processing

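Across 13 alternative settings, 418 of the 455 values of the 35 genes that the naming rule took kept their direction and their side of the threshold, 30 lost the call and 6 gained one. CA9 alone turned round, at 0.07 on the log2 scale without parental replicate 2. The count of all changed genes was 5991, against 3686 (1915 lower) without trend and robust moderation. Leaving out a library gave 3593 to 5476 changed, 1348 to 2783 higher and 2079 to 3147 lower. Of the 10 genes, 4 were higher when scaled to library totals and 1 without trend and robust moderation (HIF1A missed the threshold); leaving out a library gave 2 to 3 higher and 2 to 3 lower. Of the other pathway genes, 20 changed (8 lower) without trend and robust moderation, and 27 to 41 changed, 12 to 22 higher and 13 to 25 lower, on leaving out a library, with medians of −0.13 to −0.01. Medians of neighbours moved with library-total scaling to 0.16 (EPAS1), −0.13 (EGLN3) and 0.18 (P4HA1), by about the shift of 0.09 in the median of all genes. On leaving out a library they ranged from −0.17 to −0.04 around CA9 and from −0.42 to −0.00 around NDRG1.

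Replicate numbers are shared between the groups, but no label ties them to a common day. Same-numbered libraries deviated together at r = 0.265 over 16132 genes. With the replicate block 8624 genes changed. Of the 10 genes 6 then changed, 4 higher, with EGLN3 and BNIP3L added, and of the other pathway genes 65, 29 higher and 36 lower. That fit borrows nearly all of its spread from the trend over genes. The count-based tests planned as alternatives were not run, since whole fragments could not be recovered for every value (92.0% to 94.2% of values above 0 were whole within 0.05). Depth limits ANKRD37 and EGLN3 most, the lowest of the 10.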

Other observations

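The direction in which replicates differed was looked at after the data were seen and was not tested. Replicate 2 exceeded replicate 1 in both groups in 7 of the 10 genes, in 18 of the 21 glycolytic targets, in 4 of the 10 secreted targets and in 59 of the 90 other pathway genes tested, against 40.0% of all genes tested. The gap was 0.17 in resistant and 0.49 in parental cells for CA9 on the log2 scale, and 0.06 and 0.79 for EGLN3. HIF1A and NDRG1 went opposite ways in the groups, and CA12 was lower in replicate 2 of both. Replicate 2 was below replicate 1 in both groups in 6 of 7 fibroblast, 5 of 5 hematopoietic and 3 of 5 epithelial markers tested, against 22.4% of all genes. The fibroblast markers summed to 13383 and 10864 in resistant and 12832 and 10004 in parental libraries.

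SLC16A1, which encodes the lactate transporter MCT1, was listed at 0.956 or less in every library, while SLC16A3 averaged 2092 in resistant and 3444 in parental cells. Since a value near 0 in this table can also be a failed estimate, it is not read as absence of expression.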
